A study of Mus musculus with 9 samples.

Results

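The thyroid hormone and retinoid receptors are 8 genes of the nuclear receptor family. They are Thra and Thrb (thyroid hormone receptors), Rara, Rarb and Rarg (retinoic acid receptors), and Rxra, Rxrb and Rxrg (retinoid X receptors). Their members were taken as every probe on the array whose transcript accession belongs to one of these genes, which gave 16 probes out of 41174 on the array and 8 genes out of 31758. All 8 genes and all 16 probes passed a filter on dim probes, which kept 27778 genes and 36408 probes (a probe was kept where 4 or more of the 9 arrays read it well above background).

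The study compared hearts of RORasg/sg mice with hearts of wild-type (WT) mice. RORasg/sg mice are homozygous for staggerer, a germline deletion in Rora, which encodes the orphan nuclear receptor RORalpha, so every cell of the animal carries it. There were 4 RORasg/sg hearts and 5 WT hearts, each from a different male mouse of 3 to 4 months, labelled C57BL/6, weaned at 3 weeks, kept on the NIH31 diet and left untreated. Total RNA of each whole heart was amplified, labelled with Cy3 and hybridised to its own 1-colour Agilent array.

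Thyroid hormone receptors and retinoic acid receptors bind their DNA sites as heterodimers with a retinoid X receptor. Without hormone they hold corepressor complexes built on NCOR1 with the histone deacetylase HDAC3, and with hormone they exchange these for coactivators. In the heart, thyroid hormone raises the fast myosin Myh6 and the calcium pump Atp2a2 and lowers the slow myosin Myh7 and the pump inhibitor Pln, while retinoic acid patterns the developing heart and is made and broken down within the tissue.

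The receptors and RORalpha read a common 6-base core, AGGTCA, as a single copy (RORalpha) or as a spaced pair (the heterodimers). The 250 bases before each annotated start were searched on both strands in RefSeq promoters (GRCm38.p6), which held 15 promoters of 7 of the 8 genes, with no entry for Thra. The core was present in 4 of the 15, those of Thrb, Rarg, Rxra and Rxrg, against 14.0% of all 32851 promoters. The pair GTTCANNNNNAGTTCA, the form of the classical retinoic acid response element, was present in 1 of the 15, a promoter of Rarb. It was present in 0.0274% of all promoters. These letters are those of the known element of Rarb, so the match there was built into the search. The shares for this pair are therefore not compared. The pairs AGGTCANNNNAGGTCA and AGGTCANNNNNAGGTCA (in 0.0152% and 0.00913% of all promoters) and the RORalpha form ANNTAGGTCA (in 0.609%, and overlapping the core by its own letters) were in none of the 15. The matched stretches are shown because they hold the letters that these receptors are known to read. A match describes letters and is not evidence of binding. Capitals mark the match, read 5′ to 3′ on the strand of the gene, and TGACCT is the core on the opposite strand.
Rarb, chr14:16575488-16575553, minus strand, pair starting 52 bases before the start: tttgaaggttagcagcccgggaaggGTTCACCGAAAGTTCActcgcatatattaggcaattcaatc
Thrb, chr14:17660751-17660806, plus strand, core starting 184 bases before the start: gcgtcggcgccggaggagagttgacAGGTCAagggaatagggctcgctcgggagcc
Rarg, chr15:102257717-102257772, minus strand, core starting 225 bases before the start: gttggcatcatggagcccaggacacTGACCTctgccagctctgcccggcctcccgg
Rxra, chr2:27709180-27709235, plus strand, first core starting 87 bases before the start: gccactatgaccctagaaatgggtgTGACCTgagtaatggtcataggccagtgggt
Rxra, chr2:27709219-27709274, plus strand, second core starting 48 bases before the start: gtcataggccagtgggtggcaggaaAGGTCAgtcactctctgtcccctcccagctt
Rxrg, chr1:167618152-167618207, plus strand, core starting 88 bases before the start: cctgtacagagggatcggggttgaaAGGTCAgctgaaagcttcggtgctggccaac

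Some arrays were dimmer than others. The signal's 75th percentile ran between 264 and 773 over the RORasg/sg arrays and between 436 and 684 over the WT arrays. An array with a 75th percentile of at least 500 is called brighter here: RORasg/sg 1 and WT 1, 2, 3 and 5 were brighter, and RORasg/sg 2, 3 and 4 and WT 4 were dimmer, so brightness and genotype overlap in part. Probes well above background made up 80.7% to 86.2% on RORasg/sg arrays and 83.3% to 87.7% on WT arrays. Slide 1 held RORasg/sg 1 and 2 with WT 1 and 2, slide 2 held RORasg/sg 3 and 4 with WT 3 and 4, and slide 3 held WT 5. Rora itself was lower in every RORasg/sg heart (0.08, -2.71, -1.01 and -1.99) than in every WT heart (1.51 to 3.29, log2 scale as below), although it did not pass the test (difference -4.13, SE 0.61, limma adjusted p = 0.224). Probe A_52_P652442 of it differed by -5.34 (SE 0.82) with no overlap, and the other, A_52_P652950, by -1.08 (SE 0.78) with overlapping groups. Whether these probes lie in the deleted stretch was not analysed here, so this checks the labels only in part. For Rora every heart lay on the side of its label, RORasg/sg 1 included, but in many results below RORasg/sg 1 was among the WT hearts and WT 4 among the other RORasg/sg hearts. Whether sample quality or an exchange of samples has a part in this was not tested. All 10 markers on a cardiomyocyte list were measured and 9 averaged lower (median difference -0.79), with a summed level of 946, 1019, 503 and 451 in RORasg/sg hearts and 863 to 1034 in WT hearts (in units of the array's 75th percentile). Of 6 T and B cell markers, 5 averaged higher and 1 lower, and their sum was 7.55, 10.5 and 7.36 in RORasg/sg 2, 3 and 4 and 0.973 in RORasg/sg 1, against 1.25 to 2.15 in WT hearts. The sum of 5 Schwann cell and neuron markers, 4 of them higher on average, likewise was 7.03, 12.6 and 10.02 in RORasg/sg 2, 3 and 4 and 1.32 in RORasg/sg 1, against 1.53 to 3.00 in WT hearts. The 3 measured markers of lung epithelium were ordered alike, with sums of 0.562, 1.15 and 1.57 in RORasg/sg 2, 3 and 4 and 0.269 in RORasg/sg 1, against 0.193 to 0.429 in WT hearts. The sum of 3 erythroid markers was 22.0 in RORasg/sg 1 and 1.04 to 4.09 in the other RORasg/sg hearts, against 5.88 to 11.2 in WT hearts. Lists for atrial cardiomyocytes, endothelial cells, fibroblasts, smooth muscle, macrophages, adipocytes and skeletal muscle were also read, and their sums overlapped between the genotypes. Of 6 endothelial markers 4 averaged lower (median -1.39), with sums of 24.9 to 63.8 in RORasg/sg and 19.3 to 36.6 in WT hearts. Of 4 atrial markers 3 averaged higher, with sums of 4.97 to 9.86 in RORasg/sg and 7.24 to 23.5 in WT hearts. No marker of any of these lists passed the test, and their part in the results below was not tested.

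Levels are given as log2 of the processed signal relative to the array's 75th percentile, so that 0 is a probe as bright as that percentile, and a gene is represented by its brightest probe. A level may be compared between hearts but not between probes. Differences are RORasg/sg minus WT from limma, fitted over all genes or all probes, two-sided and adjusted by the Benjamini-Hochberg method with a threshold of 0.05.

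None of the 8 receptor genes differed between the genotypes beyond the spread of the hearts. By limma 0 of 8 genes passed, where 0.0036% of all genes did, and 0 of 8 had an unadjusted p under 0.05, where 11.6% of all genes did. In each of the 8 the RORasg/sg and WT hearts overlapped, whereas 2.83% of all genes had groups that did not overlap. The average was higher in RORasg/sg hearts for 7 of the 8 receptors and lower for Thrb, with 66.6% of all genes on the higher side, but without scaling between arrays Thra, Rara, Rarb, Rxra and Rxrg turned to the lower side and with quantile normalization Rxra did. The median of all genes itself moved to -0.17 without scaling and to 0.30 with quantile normalization. The median difference of the 8 was 0.30, and that of all genes was 0.41 with its middle 50 percent between -0.31 and 0.82. Relative to the all-gene median, 5 of the 8 receptors lay within 0.27 of it (Thra, Rara, Rarb, Rxra and Rxrg), Rarg and Rxrb lay 0.44 and 0.72 above it, and Thrb lay 1.34 below it. RNA came from whole hearts, so fewer cells of a type and less RNA per cell cannot be told apart.

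**Figure D1:**
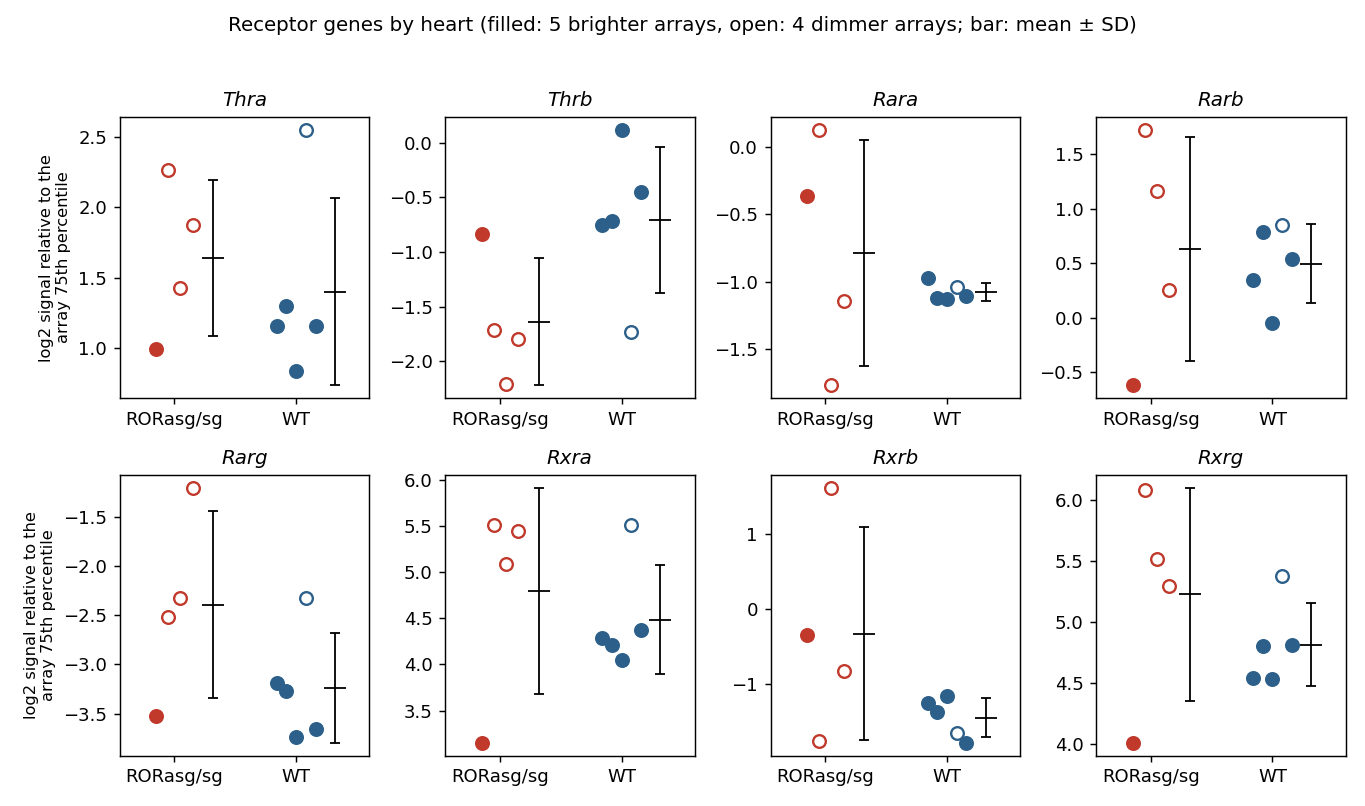
Each panel plots 1 receptor gene, with the log2 signal relative to the array's 75th percentile on the vertical axis, a point for each heart (RORasg/sg in red, WT in blue; filled for the 5 brighter arrays, open for the 4 dimmer ones) and the mean ± SD (n = 4 and n = 5) beside the points. The groups overlap in every panel, WT 4 often lies with RORasg/sg 2, 3 and 4, and the WT hearts are tight for Rara (SD 0.07) and Rxrb (SD 0.26) where the RORasg/sg hearts are spread (SD 0.83 and 1.42).

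Thra encodes thyroid hormone receptor alpha, the main thyroid hormone receptor of heart muscle, and its start lies on chromosome 11. Its brightest probe, A_51_P475995, read 0.99, 2.27, 1.42 and 1.87 in RORasg/sg hearts and 1.15, 1.30, 0.83, 2.55 and 1.16 in WT hearts. The highest heart of all was WT 4, so the groups overlapped over nearly their whole range. The difference was 0.24 (SE 0.48, 95% interval -0.80 to 1.28, adjusted p = 0.759), an interval that holds a 2-fold change in the higher direction. The second probe, A_52_P666930, read 0.35, 1.14, -0.12 and 0.37 in RORasg/sg hearts and -0.25 to 1.02 in WT hearts. There WT 4 was the lowest of all 9 hearts, the reverse of its place on the first probe. The difference of the second probe was -0.15 (SE 0.45, adjusted p = 0.851). Thra overlaps Nr1d1 in the annotation, and where the probes lie within the gene was not analysed here.

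Thrb encodes thyroid hormone receptor beta, the receptor that mediates hormone feedback in the pituitary and is the minor form in heart muscle. It was the receptor farthest on the lower side, at the 13.3 percentile of all genes' differences. Its brightest probe, A_51_P388835, had a deposited signal of 435, 89.0, 84.4 and 75.9 in RORasg/sg hearts, against 407, 391, 685, 131 and 399 in WT hearts. On the scaled log2 measure the RORasg/sg hearts were at -0.83, -1.71, -2.21 and -1.80, and the WT hearts were at -0.75, -0.72, 0.12, -1.73 and -0.45. RORasg/sg 2, 3 and 4 were low together with WT 4, and RORasg/sg 1 lay just under the other WT hearts. The means were -1.64 ± 0.58 (SD, n = 4) in RORasg/sg hearts and -0.71 ± 0.67 (SD, n = 5) in WT hearts. The difference of -0.93 (SE 0.49, 95% interval -1.99 to 0.13), a ratio of 0.524, did not pass the test (adjusted p = 0.418).

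The other 3 probes of Thrb did not give a single picture. A_52_P532559 leaned the same way, with -2.37, -4.54, -3.89 and -4.32 in RORasg/sg hearts (well above background in 3 of 4) and -2.80, -2.64, -3.41, -4.02 and -2.03 in WT hearts, a difference of -0.80 (SE 0.57, adjusted p = 0.439). A_52_P877015 leaned the other way, with -2.39, -1.64, -1.72 and -1.76 in RORasg/sg hearts and -2.48, -1.92, -2.32, -3.14 and -2.00 in WT hearts. RORasg/sg 2, 3 and 4 were here above all WT hearts and RORasg/sg 1 was among the lowest, and the difference was 0.49 (SE 0.42, adjusted p = 0.488). The dimmest probe, A_52_P265108, was well above background in 2 of 4 RORasg/sg and 2 of 5 WT hearts and differed by 0.39 (SE 0.65, adjusted p = 0.713), with ranges of -7.08 to -4.11 in RORasg/sg hearts and -6.77 to -5.36 in WT hearts.

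**Figure D2:**
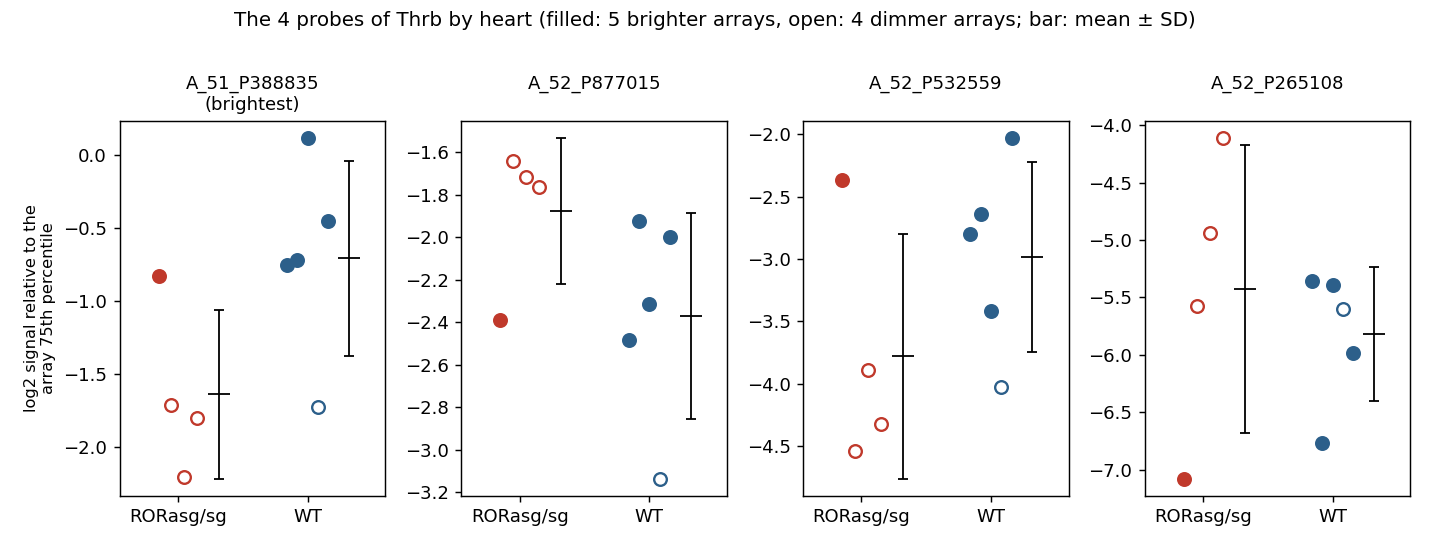
The 4 panels plot the probes of Thrb, each on its own vertical axis of log2 signal relative to the array's 75th percentile, with a point per heart (RORasg/sg in red, WT in blue; filled for brighter, open for dimmer arrays) and the mean ± SD. On A_51_P388835 and A_52_P532559 RORasg/sg 2, 3 and 4 lie below the 4 brighter WT hearts with WT 4 among them, and on A_52_P877015 they lie above all WT hearts.

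Whether the probes of a gene moved unequally was tested on the log2 difference between each further probe and the brightest probe of the same gene within an array, in which the scaling between arrays cancels. Of the 8 such pairs of the receptors 0 passed by limma, as did 0% of all 8630 pairs, and 1 of the 8 had an unadjusted p under 0.05, where 15.7% of all pairs did. In all 8 pairs the groups overlapped, whereas in 2.94% of all pairs they did not. The pair with the small unadjusted p was A_52_P877015 against A_51_P388835 of Thrb. Its log2 difference was -1.56, 0.07, 0.49 and 0.04 in RORasg/sg hearts and -1.74, -1.20, -2.43, -1.41 and -1.54 in WT hearts. RORasg/sg 2, 3 and 4 stood above every WT heart, the dimmer WT 4 included, while RORasg/sg 1 lay among them. The shift of 1.43 (SE 0.56) had an adjusted p of 0.299. Without RORasg/sg 1 it was 1.87 (SE 0.48, adjusted p = 0.0219), and the shift of A_52_P265108 against the same probe was 2.15 (adjusted p = 0.0369), so that 2 of the 8 pairs passed where 24.4% of all pairs did. The first shift was 0.73 (SE 0.86) within slide 1, 2.19 (SE 0.97) within slide 2, 0.17 (SE 0.53) in the 5 brighter arrays (1 RORasg/sg, 4 WT) and 1.61 (SE 1.12) in the 4 dimmer ones. In the brighter arrays 1 other pair of the 8 passed, A_51_P307370 against A_52_P188139 of Rxra (shift 1.602, SE 0.32, adjusted p = 0.0497), where 1.78% of all pairs did.

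Rara encodes retinoic acid receptor alpha, the most broadly expressed of the 3 retinoic acid receptors, and had 1 probe. It read -0.36, 0.12, -1.76 and -1.14 in RORasg/sg hearts, against -0.97, -1.12, -1.13, -1.04 and -1.11 in WT hearts. The WT hearts were within 0.16 of each other on the log2 scale, and the RORasg/sg hearts lay on both sides of them. The means were -0.79 ± 0.83 (SD, n = 4) in RORasg/sg hearts and -1.07 ± 0.07 (SD, n = 5) in WT hearts, and the difference was 0.28 (SE 0.46, 95% interval -0.72 to 1.29, adjusted p = 0.705). It was 0.92 within slide 1 and -0.37 within slide 2, so its sign differed between the slides.

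Rarb encodes retinoic acid receptor beta, itself a classical target gene of retinoic acid through the element shown above. Its brightest probe, A_51_P202440, is spotted 10 times on each array, and the spots of 1 array had a coefficient of variation of 2.44% to 10.8%. Its levels were -0.62, 1.72, 1.16 and 0.26 in RORasg/sg hearts and 0.35, 0.78, -0.05, 0.85 and 0.54 in WT hearts. The SD was 1.03 between RORasg/sg hearts and 0.36 between WT hearts. The repeated spots of 1 array had an SD of 0.04 to 0.15 on the log2 scale, which holds spot noise within an array but no noise between arrays. RORasg/sg hearts held both the 2 highest values and the lowest, and the difference was 0.14 (SE 0.52, 95% interval -1.005 to 1.28, adjusted p = 0.878). The second probe, A_52_P495759, read -2.76, -3.22, -2.99 and -3.73 in RORasg/sg hearts and -2.85, -3.91, -2.34, -3.56 and -2.66 in WT hearts, a difference of -0.11 (SE 0.45, adjusted p = 0.887).

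Rarg encodes retinoic acid receptor gamma, best known from skin and cartilage. Its brightest probe, A_51_P372858, read -3.52, -2.51, -2.33 and -1.20 in RORasg/sg hearts, against -3.19, -3.27, -3.73, -2.32 and -3.66 in WT hearts. RORasg/sg 2, 3 and 4 and WT 4 were the 4 high hearts and RORasg/sg 1 was with the other WT hearts. The difference was 0.84 (SE 0.52, 95% interval -0.29 to 1.98, adjusted p = 0.421), a ratio of 1.80. The second probe, A_51_P372853, read -4.48, -4.38, -2.79 and -2.54 in RORasg/sg hearts and -3.54, -3.64, -3.31, -2.71 and -4.33 in WT hearts. There the RORasg/sg hearts held both the 2 lowest values and the highest, and the difference was -0.04 (SE 0.55, adjusted p = 0.965).

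Rxra encodes retinoid X receptor alpha, the shared partner whose loss in mouse embryos leaves a thin ventricular wall. Its brightest probe, A_52_P188139, read 3.15, 5.52, 5.09 and 5.45 in RORasg/sg hearts, against 4.29, 4.21, 4.05, 5.52 and 4.37 in WT hearts. RORasg/sg 1 was the lowest of the 9 hearts and the other RORasg/sg hearts were high together with WT 4. The difference was 0.32 (SE 0.51, 95% interval -0.80 to 1.43, adjusted p = 0.705). The second probe, A_51_P307370, read -2.52, -3.16, -0.71 and -0.59 in RORasg/sg hearts, against -3.27, -2.89, -2.97, -2.85 and -3.03 in WT hearts. RORasg/sg 3 and 4 stood clear of the WT hearts, RORasg/sg 1 was slightly above them and RORasg/sg 2 was among them. Its difference was 1.26 (SE 0.56, adjusted p = 0.388).

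Rxrb encodes retinoid X receptor beta, which is expressed in nearly every tissue. Its brightest probe, A_52_P519689, had a deposited signal of 608, 86.5, 1205 and 150 in RORasg/sg hearts and 287, 248, 282, 139 and 159 in WT hearts. On the scaled log2 measure the RORasg/sg hearts were at -0.35, -1.76, 1.63 and -0.82, and the WT hearts were at -1.25, -1.38, -1.16, -1.65 and -1.78. RORasg/sg 3 was the highest by far, RORasg/sg 1 and 4 were above all WT hearts and RORasg/sg 2 was near the lowest. The means were -0.32 ± 1.42 (SD, n = 4) in RORasg/sg hearts and -1.44 ± 0.26 (SD, n = 5) in WT hearts. The difference of 1.12 (SE 0.61, 95% interval -0.21 to 2.45), a ratio of 2.18, did not pass the test (adjusted p = 0.418). Without RORasg/sg 3 it was 0.47 (SE 0.48). The second probe, A_51_P314830, read -1.63, -2.26, -1.81 and -1.91 in RORasg/sg hearts and -1.98, -2.60, -1.94, -0.70 and -2.56 in WT hearts, with a difference of 0.05 (SE 0.47, adjusted p = 0.950) and no high value in RORasg/sg 3.

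Rxrg encodes retinoid X receptor gamma, which is found mainly in muscle, heart and brain. Its single probe read 4.01, 6.08, 5.52 and 5.29 in RORasg/sg hearts, against 4.54, 4.80, 4.54, 5.37 and 4.82 in WT hearts. As for Rxra, RORasg/sg 1 was the lowest of the 9 hearts and WT 4 was the highest WT heart. The difference was 0.41 (SE 0.41, 95% interval -0.48 to 1.30, adjusted p = 0.543).

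**Figure D3:**
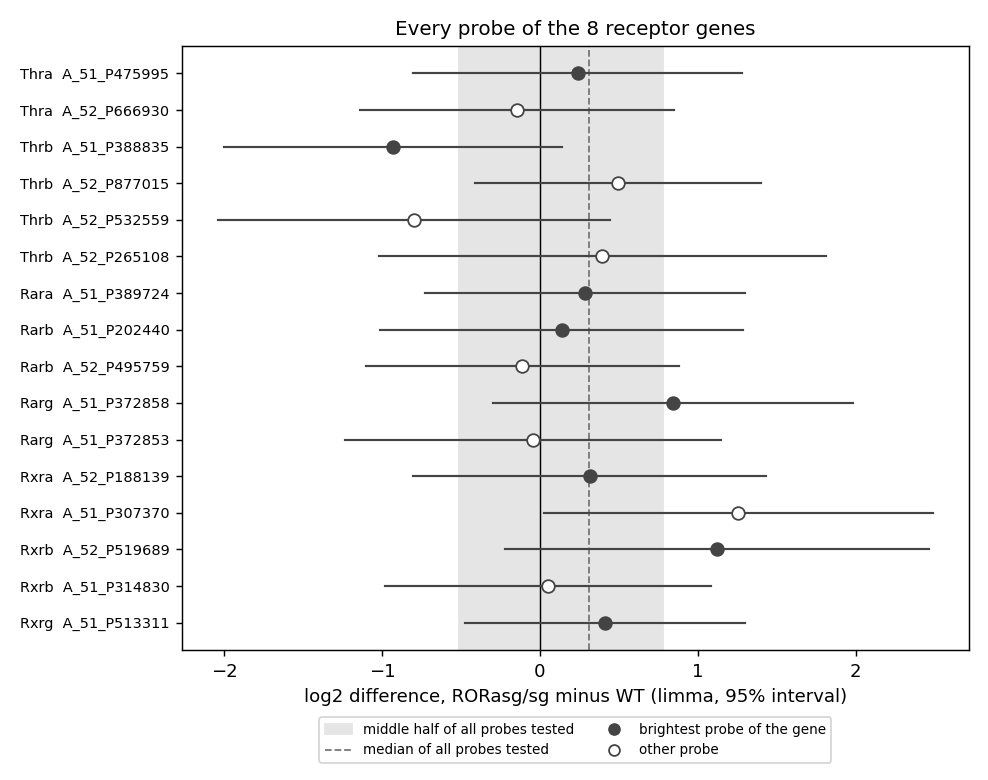
The log2 difference of RORasg/sg minus WT (horizontal axis, with its 95% interval from limma) is plotted for each of the 16 probes, filled for the brightest probe of a gene and open for the others, over a grey band for the middle 50 percent of all probes (-0.51 to 0.78) and a dashed line for their median (0.31). The interval of 1 probe, A_51_P307370 of Rxra, leaves out 0, and the probes of Thrb, Rarg, Rxra and Rxrb lie farther from each other than those of Thra and Rarb.

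Over the 16 probes 0 passed by limma, where 0.00275% of all probes did. A_51_P307370 of Rxra was the only one of the 16 with an unadjusted p under 0.05, where 12.8% of all probes had one. In all 16 the groups overlapped, whereas in 3.06% of all probes they did not.

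The values above were read again within the slides, within the brighter and dimmer arrays, and without single arrays. Thrb had a difference below 0 in every one of these sets: -0.54 within slide 1, -1.20 within slide 2, -0.38 (SE 0.36) in the 5 brighter arrays and -0.18 (SE 0.61) in the 4 dimmer arrays. In the brighter arrays this set RORasg/sg 1 at -0.83 against a WT mean of -0.45, and in the dimmer arrays a RORasg/sg mean of -1.91 against WT 4 at -1.73. These 2 differences were no larger than about their own SE, and over all 9 arrays with brightness (log2 of the 75th percentile) as a covariate the difference of Thrb was -0.47 (SE 0.46). Rxrb was higher in every set, by 0.26 within slide 1, 1.81 within slide 2, 1.04 in the brighter arrays and 1.34 in the dimmer arrays, and by 1.47 (SE 0.69) with brightness as a covariate. Rarg was higher by 0.22 within slide 1 and 1.26 within slide 2, and differed by -0.06 in the brighter arrays.

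Of the single arrays left out, RORasg/sg 1 changed the number of genes that passed the most. Without RORasg/sg 1, 37.4% of all genes passed and 1 of the 8 receptors did. The receptor was Rxrg, with a difference of 0.82 (SE 0.27, limma adjusted p = 0.0420), while the all-gene median stood at 0.68. In that fit all RORasg/sg arrays were dimmer and all WT arrays but WT 4 brighter, so brightness and genotype nearly coincided. Thrb at -1.20 (SE 0.42, adjusted p = 0.0506) and Rarg at 1.22 (SE 0.43, adjusted p = 0.0521) were close to the threshold in that fit. Of the 21 other genes named here from the lists, with Rora among them, 17 passed without RORasg/sg 1, all but Myh7, Nr4a1, Hr and Slc16a10. Apart from Rora, these genes were named for the smallest p of their list on these same arrays. A high count was therefore built in, and it is no result about the lists. In the 5 brighter arrays, where RORasg/sg 1 is the only RORasg/sg heart and is assumed to vary like the WT hearts, 4.28% of all genes passed and 1 of the 8 receptors did. That was Rxra, on the opposite side, with a difference of -1.08 (SE 0.19, adjusted p = 0.0268), while the all-gene median was -0.34. There Rarb differed by -1.02 (adjusted p = 0.103) and Rxrg by -0.66 (adjusted p = 0.0733). Array weights, a setting in which limma weighs each array by its fit, let 54.5% of all genes and 5 of the 8 receptors pass (Thrb, Rarg, Rxra, Rxrb and Rxrg). Leaving out WT 4 gave 0 genes of all tested that passed, and so 0 receptors, with Thrb at -1.19 (SE 0.47, adjusted p = 0.297).

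**Figure D4:**
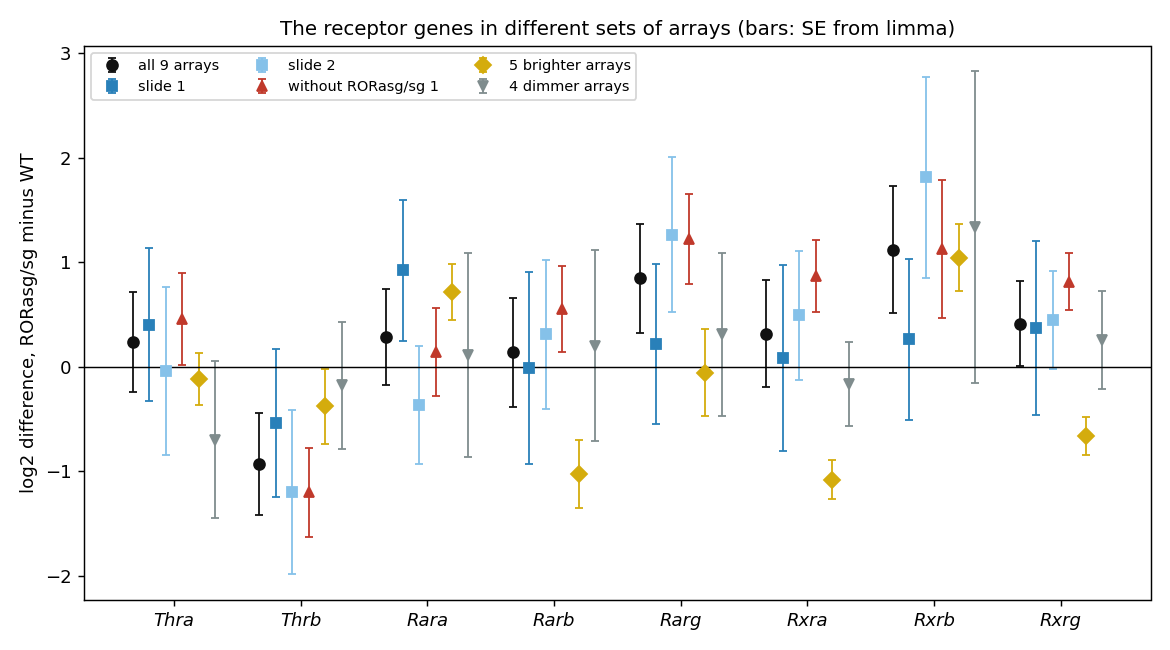
For each receptor gene the log2 difference of RORasg/sg minus WT (vertical axis, bars for the SE from limma) is plotted for all 9 arrays, each slide, all arrays but RORasg/sg 1, the 5 brighter arrays (1 RORasg/sg, 4 WT) and the 4 dimmer arrays (3 RORasg/sg, 1 WT). Thrb stays below 0 and Rxrb above 0 in all 6 sets, whereas Rarb, Rxra and Rxrg lie at -1.02, -1.08 and -0.66 in the brighter arrays and above 0 without RORasg/sg 1.

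The ratio of 2 receptors within 1 array is free of the array's scaling, and its change between hearts is a change in the relative signal of the 2 probes. Only a factor common to all probes of an array cancels in it. Effects that differ between bright and dim probes do not cancel, and their part was not tested. In none of the 28 pairs did RORasg/sg and WT hearts separate. These pairs share genes and are not independent, and the share of such pairs among all genes was not computed. The count is therefore not compared with a rate, and it is no result about the receptors. The steadiest pair over the 9 hearts was Rarb over Rxrg, with an SD of 0.29 and a log2 ratio of -4.63, -4.36, -4.36 and -5.04 in RORasg/sg hearts and -4.20, -4.02, -4.59, -4.53 and -4.28 in WT hearts. Rxra over Rxrg (SD 0.34) and Thra over Rxrg (SD 0.39) came next. The other 3 pairs among these 4 receptors had SDs of 0.44 (Thra over Rxra), 0.54 (Rarb over Rxra) and 0.55 (Thra over Rarb), beside an SD of the level itself of 0.59 for Thra, 0.68 for Rarb, 0.82 for Rxra and 0.63 for Rxrg. The widest pairs were Thrb over Rxrb (SD 1.57), Thrb over Rarg (1.54) and Thrb over Rxra (1.48), followed by Rara over Rxrb (1.42). Thrb over Rxra was -3.98, -7.23, -7.30 and -7.25 in RORasg/sg hearts and -5.04, -4.93, -3.93, -7.25 and -4.83 in WT hearts. The 4 dimmer arrays, WT 4 among them, were nearly equal in this ratio and the 5 brighter arrays lay well above them, RORasg/sg 1 included.

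The genes whose centred levels over the 9 hearts lay nearest to each receptor were found by the root mean square of the log2 distance over all genes tested. They were Snrpf for Thra (0.12), Lrrc15 for Thrb (0.21), Nras for Rara (0.17), Pno1 for Rarb (0.14), the unnamed probe A_52_P812372 for Rarg (0.11), Vps28 for Rxra (0.09), Cacnb1 for Rxrb (0.32) and Cir1 for Rxrg (0.05). The points are 9 arrays that share their brightness pattern, so the distances describe these arrays only. No receptor had another receptor as its nearest gene.

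Genes that deliver thyroid hormone to its receptors were close to the bulk of genes. Of 9 listed transporters, deiodinases and binding proteins 8 were measured, 6 averaged higher and 2 lower, 0 passed by limma and 0 had an unadjusted p under 0.05, with a median difference of 0.33. The transporter Slc16a10 (MCT10) differed by -1.12 (SE 0.71, adjusted p = 0.423). It leaned lower on its other probes too (-1.11 and -1.33). Dio3, the deiodinase that inactivates the hormone, differed by 0.65 (SE 0.49, adjusted p = 0.457).

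Heart genes that thyroid hormone induces were all measured, 13 of 13, with 9 higher and 4 lower on average and a median of 0.59, and 0 passed. By unadjusted p under 0.05 there were 0 higher and 1 lower, where 4.94% and 6.62% of all genes were. That gene was Myh6, the fast myosin heavy chain, at 6.50, 4.21, 0.65 and 0.10 in RORasg/sg hearts and 5.89, 5.69, 6.03, 4.62 and 5.83 in WT hearts. RORasg/sg 3 and 4 were far below and RORasg/sg 1 above all WT hearts, and the difference was -2.74 (SE 1.07, adjusted p = 0.418; -1.89 on its other probe). Without RORasg/sg 4 it was -1.82. RORasg/sg 3 and 4 also had the lowest cardiomyocyte marker sums (503 and 451), a list that holds Myh6. Hr, the corepressor hairless, differed by -1.31 (SE 0.65, adjusted p = 0.418). Adrb1, the beta-1 adrenergic receptor, differed by 0.90 (SE 0.47, adjusted p = 0.418) on its brightest probe and by -1.42 on the other, so its direction is not settled here. Thrsp (0.78) and Ucp3 (0.67), chosen after their values were seen, were the 2 genes of the list with groups that did not overlap, both higher, where 1.12% of all genes had such groups.

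Heart genes that thyroid hormone represses split evenly, with 3 of 6 higher and 3 lower on average, a median of 0.19 and 0 that passed. By unadjusted p under 0.05 there were 1 higher and 2 lower, where 4.94% and 6.62% of all genes were. The 2 lower ones were Myh7, the slow myosin heavy chain, and Pln, the inhibitor of the calcium pump. Myh7 was at 1.37, 3.80, 2.20 and 1.72 in RORasg/sg hearts and 3.28, 3.40, 4.56, 4.27 and 4.21 in WT hearts, a difference of -1.67 (SE 0.52, adjusted p = 0.385; -1.47 on its other probe). Pln was at 5.51, 4.74, 3.15 and 3.16 in RORasg/sg hearts and 5.50 to 5.74 in WT hearts, a difference of -1.46 (SE 0.47, adjusted p = 0.386). It is on the cardiomyocyte marker list, and was lowest in the same RORasg/sg 3 and 4. The higher one, Kcne1, named after its value was seen, encodes a potassium channel subunit and differed by 1.74 (SE 0.59, adjusted p = 0.399). Myh6 and Myh7, which the hormone regulates in opposite directions, thus both averaged lower without passing the test.

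Of 15 genes of retinoid supply and metabolism 13 were measured, with 7 higher and 6 lower on average, a median of 0.04 and 0 that passed. By unadjusted p under 0.05 there were 1 higher and 2 lower, where 4.94% and 6.62% of all genes were. The higher one was Aldh1a2, the enzyme that makes retinoic acid, at 0.32, 3.50, 2.95 and 2.25 in RORasg/sg hearts and -0.98, -0.67, -0.93, 0.38 and -0.23 in WT hearts. RORasg/sg 2, 3 and 4 stood well above every WT heart, and RORasg/sg 1 lay just under WT 4, the highest of them. The difference of 2.74 (SE 0.63, adjusted p = 0.348) was at the 99.9 percentile of all genes, and it was 1.02 (SE 0.33) in the 5 brighter arrays. The lower ones were Dhrs3, which turns retinaldehyde back to retinol, and Rdh10, which makes retinaldehyde. Dhrs3 was at 4.01, 2.53, 1.71 and 3.61 in RORasg/sg hearts and 4.02 to 4.43 in WT hearts. Its groups did not overlap, though RORasg/sg 1 lay barely below the lowest WT heart (1.71% of all genes were lower without overlap). The difference of Dhrs3 was -1.30 (SE 0.46, adjusted p = 0.404), and it was -0.21 in the 5 brighter arrays. On its other probe the difference was -1.87 (SE 1.01), with overlapping groups. Rdh10 differed by -1.15 (SE 0.48, adjusted p = 0.418), and by -0.16 (SE 0.27) with another background correction (normexp). Its other probe differed by -2.39 (SE 1.28) and was well above background in 1 of 4 RORasg/sg and 4 of 5 WT hearts.

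Of 11 direct targets of the retinoic acid receptors 8 were measured, with 5 higher and 3 lower on average, a median of 0.03 and 0 that passed. By unadjusted p under 0.05 there were 2 higher, the homeobox genes Hoxb4 and Cdx1, and 1 lower, Dhrs3, which is on both lists (4.94% and 6.62% of all genes). Hoxb4 was at -4.57, 0.12, -2.14 and -1.04 in RORasg/sg hearts and -4.43 to -3.39 in WT hearts, a difference of 1.88 (SE 0.77, adjusted p = 0.418), which was 1.20 without RORasg/sg 2. Cdx1 was at -5.75, -3.47, 0.47 and -3.71 in RORasg/sg hearts and -6.11 to -4.46 in WT hearts, where 3 of 5 were well above background, a difference of 2.34 (SE 0.99, adjusted p = 0.418), which was 1.15 (SE 0.68) without RORasg/sg 3. In both, RORasg/sg 2, 3 and 4 were above all WT hearts and RORasg/sg 1 was not, which is also how the T and B cell, the Schwann cell and neuron and the lung epithelium marker sums were ordered. Rarb, the receptor that is itself such a target, differed by 0.14.

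The coregulators that the receptors recruit had a median difference below that of all genes. All 15 were measured, 6 averaged higher and 9 lower, and the median was -0.59, against 0.41 for all genes, with 0 that passed by limma and 0 higher and 2 lower by unadjusted p under 0.05 (4.94% and 6.62% of all genes). Ncor1, the corepressor of unliganded thyroid hormone and retinoic acid receptors, was at 2.51, 2.43, 0.05 and -2.49 in RORasg/sg hearts and 3.05, 3.27, 3.05, 2.78 and 3.03 in WT hearts. Every RORasg/sg heart was below every WT heart, and the difference was -2.41 (SE 0.87, adjusted p = 0.407), which was -1.37 (SE 0.56) without RORasg/sg 4. Tbl1xr1, a subunit of the corepressor complex named after its value was seen, was without overlap on the higher side (0.72, SE 0.43), and 1.12% of all genes were higher and 1.71% lower without overlap. The other 3 probes of Ncor1 differed by -1.25, -1.23 and -0.56, with overlapping groups. The coactivator Ncoa3 differed by -1.46 (SE 0.55, adjusted p = 0.413) on its brightest probe but by 0.36 and 0.89 on the others, and Ncoa1 by 1.06 (SE 0.53, adjusted p = 0.418).

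Of the 11 other dimer partners of the retinoid X receptors, all measured, 6 averaged higher and 5 lower, with a median of 0.24 and 0 that passed (0 higher and 2 lower by unadjusted p under 0.05, against 4.94% and 6.62% of all genes). Nr1h3, the oxysterol receptor LXRalpha, was at 0.67, -1.13, -1.34 and -1.11 in RORasg/sg hearts and 0.71, 1.13, 1.22, -0.14 and 1.07 in WT hearts. The 3 low RORasg/sg hearts lay below every WT heart, and the difference was -1.52 (SE 0.53, adjusted p = 0.400). Nr4a1 (NUR77) differed by -1.61 (SE 0.73, adjusted p = 0.418) and Vdr, the vitamin D receptor, by 1.06 (SE 0.53, adjusted p = 0.418).

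The clock repressors Nr1d1 and Nr1d2 lie beside Thra and Thrb, and Nr1d1 is a known target gene of ROR factors. Nr1d1, which overlaps Thra, was at 2.21, -0.78, -0.31 and 0.62 in RORasg/sg hearts and 2.99, 3.16, 2.94, 1.81 and 2.96 in WT hearts, a difference of -2.34 (SE 0.60, adjusted p = 0.368) with RORasg/sg 1 above WT 4. Its other 2 probes differed by -1.46 and -1.37. Thra, set beside it, differed by 0.24 in the same hearts, and Rara, on the same chromosome, by 0.28. Nr1d2 differed by 0.72 (SE 0.44, adjusted p = 0.421), beside Thrb at -0.93. In the 5 brighter arrays Nr1d2, Dio3, Adrb1, Hr, Myh6, Hoxb4, Cdx1, Vdr and Ncoa1 had differences of the opposite sign.

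**Figure D5:**
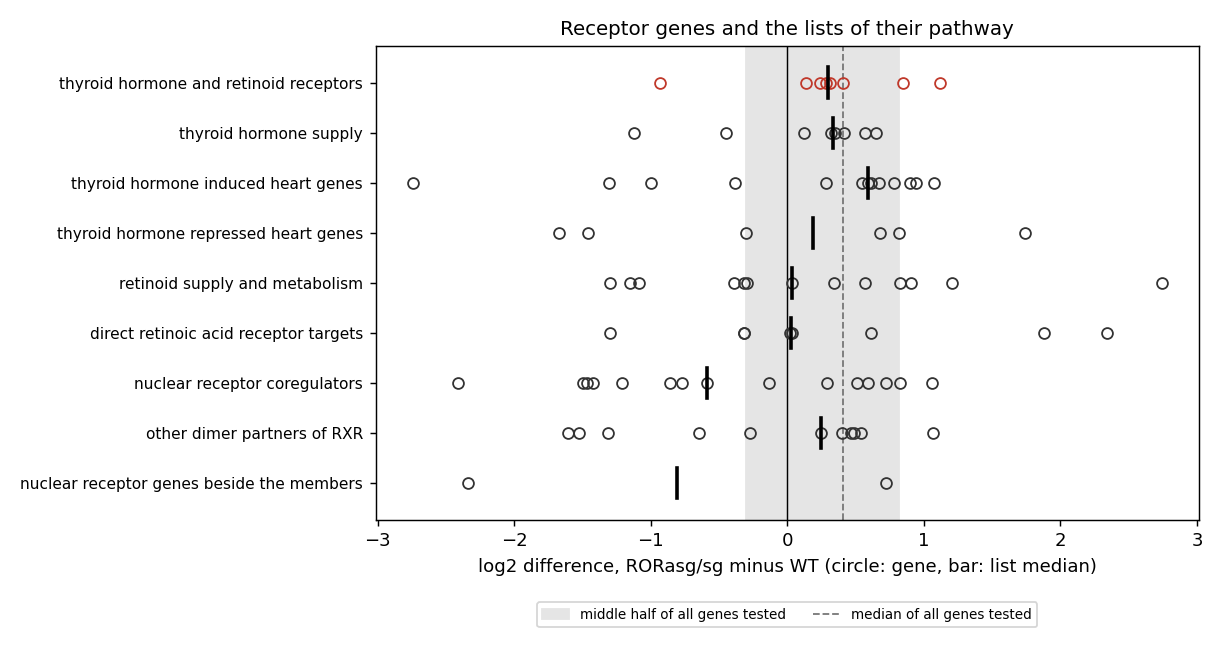
Each circle is the log2 difference of RORasg/sg minus WT of 1 gene (horizontal axis), by list, with the 8 receptors on top in red, a black bar for the median of each list, a grey band for the middle 50 percent of all genes (-0.31 to 0.82) and a dashed line for their median (0.41). The receptors lie between -0.93 and 1.12 around a median of 0.30, and the coregulators have a median of -0.59.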

How the data were processed

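Per the labels' protocols, 70 ng of RNA per heart was amplified and 5 ug of the cDNA was labelled. Per the file headers, Feature Extraction 12.0.0.7 read the scans of design 014868, with mm9 as the build of the grid, and Agilent Feature Extraction 12 stands in the submitters' processing notes. The deposited intensity of a spot is its processed signal on a linear scale, from which background was already subtracted and which is not scaled from array to array. The series' deposited value table held identical intensities (the greatest relative difference was 0). Control spots were left out (43379 of 45018 remained), as were 758 flagged spots over the 9 arrays, and 0 spots were saturated.

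The log2 of the deposited intensity was taken, the 75th percentile of the array subtracted and the spots of a probe averaged. A gene took its brightest kept probe. RefSeq (GRCm38.p6) named 28223 of 41174 probes by accession and gave neighbours and promoters; the grid has another build, so no probe was placed by coordinates. RORasg/sg was compared with WT by limma 3.58.1 in R 4.3.3, using lmFit and eBayes with an intensity trend, once over 27778 genes, once over 36408 probes and once over 8630 probe pairs. The fits were tested on simulated data with independent arrays and an equal spread in both genotypes. Some genes were more spread in the real RORasg/sg hearts (Rara, SD 0.83 against 0.07 in WT hearts), which the simulation does not cover. Other software was the R package data.table (version 1.17.8), Python 3.11.15 and matplotlib 3.10.9. Precision is limited by the number of arrays.

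Named in the text are all receptors and their probes, Rora, the genes of a list that passed or else the 3 with the smallest p (2 in lists of fewer than 8), and the nearest gene of each receptor. A gene that this rule would name is not reported here. Members and lists were chosen with earlier results of these data known. Alternatives were array median, quantile or no scaling, normexp (offset 50), no filter or a filter on all arrays, the mean of a gene's probes, blocks for slide or for replicate number, eBayes without trend or robust, array weights, brightness as a covariate, brighter or dimmer arrays alone, and leaving out each array. Replicate numbers do not pair the hearts: deviations of same-numbered hearts correlated at 0.046, -0.0064, -0.33 and 0.39.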

Additional observations from a re-analysis of the deposited data

Results flagged for a closer look

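In all, 74 groups of hearts were tested for a single heart far from the others, and 9 held one. The groups were each named gene and each further probe of a receptor, in each genotype. The test flags about 1 in 20 groups by chance, but these groups read the same 9 arrays and are not independent. The count is therefore not compared with that rate. In 7 of the 9 flagged groups the heart was WT 4, the 1 dimmer WT array. It was high for Thra (2.55, the other WT hearts 0.83 to 1.30), Rxra (5.52, others 4.05 to 4.37), Ncoa3 (2.03, others 1.07 to 1.26) and Adrb1 (2.20, others 1.45 to 1.65). It was low for Rora (1.51, others 2.87 to 3.29), Nr1d1 (1.81, others 2.94 to 3.16) and Myh6 (4.62, others 5.69 to 6.03). RORasg/sg 1, the 1 brighter RORasg/sg array, stood apart from the other RORasg/sg hearts for Nr1h3 (0.67, others -1.34 to -1.11) and for probe A_52_P877015 of Thrb (-2.39, others -1.76 to -1.64). The part of array brightness in these values was not tested.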

How the results depend on the processing

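The counts of genes that passed (1, lower) were 2 with quantile normalization, 3 without scaling, 9 with the replicate block, 15133 with array weights (54.5%, 5 of the 8 receptors: Thrb, Rarg, Rxra, Rxrb and Rxrg), 1189 in the 5 brighter arrays, and 0 with normexp, the filter on all arrays, the mean of a gene's probes, slide as a block, slide 1, slide 2 or the 4 dimmer arrays. Leaving out 1 heart gave 0 to 10397, the highest without RORasg/sg 1. Probes that passed (1) numbered 4 without scaling, 18053 with array weights, 1350 in the brighter arrays and 0 with normexp, the filter on all arrays, either slide, slide or replicate block, brightness as a covariate or the dimmer arrays, and 0 to 12758 with 1 heart left out. Unequal probe pairs (0) numbered 1990 with array weights, 154 in the brighter arrays and 0 to 2104 with 1 heart left out. Of 208 values of the 8 receptors under an alternative, 24 changed sign and 7 passed (1 of them, Rxra in the brighter arrays, with its sign changed). The sign of Thrb and Rxrb changed under no alternative run, with ranges of -1.52 to -0.18 and 0.26 to 2.03. Apart from the mean of a gene's probes, these alternatives read 1 probe per gene, so a steady sign is not a check over the probes. With that mean Thrb differed by -0.21 (SE 0.37) and Rxrb by 0.59 (SE 0.45). The sign changed without scaling for Thra (-0.33), Rara (-0.29), Rarb (-0.44), Rxra (-0.26), Rxrg (-0.16), A_52_P877015 (-0.077), A_52_P265108 (-0.18) and A_51_P314830 (-0.52), and with quantile normalization for Rxra (-0.01050) and A_51_P314830 (-0.028; -0.012 with the array median). With normexp it changed for A_52_P532559 (0.0396), A_52_P495759 (0.25) and A_51_P372853 (0.23), with the mean of a gene's probes for Adrb1 (-0.26), with slide as a block or the replicate block for A_51_P314830 (-0.10), and with array weights for Rara (-0.26) and A_51_P372853 (0.63). It changed within slide 1 for Rarb (-0.014), A_52_P265108 (-0.26) and A_52_P495759 (0.39), and within slide 2 for Thra (-0.044), Rara (-0.37), A_51_P372853 (0.34) and A_51_P314830 (-0.54). In the brighter arrays it changed for Thra (-0.12), Rarb (-1.02), Rarg (-0.059), Rxra (-1.08), Rxrg (-0.66), Nr1d2 (-0.45), Vdr (-0.36), Hoxb4 (-0.69), Cdx1 (-0.045), Ncoa1 (-0.047), Myh6 (0.64), Hr (0.16), Adrb1 (-0.14), Dio3 (-0.71), A_52_P877015 (-0.21), A_52_P532559 (0.35), A_52_P265108 (-1.20) and A_52_P495759 (0.18). In the dimmer arrays it changed for Thra (-0.70), Rxra (-0.16), A_52_P666930 (0.72), A_52_P495759 (0.24) and A_51_P314830 (-1.30), and with brightness as a covariate for Thra (-0.30), Rarb (-0.42), Rxra (-0.62), Rxrg (-0.22), A_52_P265108 (-0.38) and A_52_P495759 (0.19). With 1 heart left out, the ranges that crossed 0 were -0.019 to 0.61 for Rara, -0.23 to 0.55 for Rarb, -0.38 to 0.0400 for A_52_P666930, -0.044 to 0.94 for A_52_P265108, -0.32 to 0.074 for A_52_P495759, -0.38 to 0.27 for A_51_P372853 and -0.11 to 0.37 for A_51_P314830. The cause of these changes was not tested.

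The replicate numbers did not pair the hearts; with the replicate block, Thrb was -0.87 and Rxrb 1.04, 0 of the 8 receptors passed, and Rora did (-4.05, adjusted p = 0.0430). With 9 arrays the SE of a gene was 0.56 at the median, and a difference as large as -4.13 (Rora) did not pass. Signal over background limits A_52_P265108 and A_52_P532559 of Thrb most.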

Other observations

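Further genes of the same pathways, named after their values were seen, had overlapping groups and none passed by limma. Of the deiodinases, Dio1 differed by -0.45 (SE 0.57) and Dio2, which activates the hormone, by 0.35 (SE 0.53). The calcium pump Atp2a2 differed by 0.61 (SE 0.36). Of the corepressor complex, Hdac3 differed by -0.86 (SE 0.53), beside Ncor1 at -2.41. In retinoid handling, the retinol receptor Stra6 differed by 0.83 (SE 0.57), the retinol esterifying enzyme Lrat by 1.20 (SE 0.59), and Cyp26b1, which degrades retinoic acid, by -0.39 (SE 0.43).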
